A study of Rattus norvegicus with 2 samples.

Results

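Nuak1, its closest relative Nuak2, and further kinases of the AMPK family were examined together with Stk11, the gene of the kinase LKB1 that activates them, in the thymus of a rat given cocaine. The genes were chosen by name: Nuak1, Nuak2, Prkaa1, Prkaa2, Sik1, Sik2, Sik3, Mark2, Mark3 and Stk11, and 9 of these 10 had 1 named row each among 15037 named genes. The array signal of Sik2 was not analysed here. Nuak1 was picked because its signal differed between these arrays, so its difference is given as a description and nothing is read from it. RNA was taken from the thymus of 1 male Sprague-Dawley rat given 20 mg/kg cocaine hydrochloride intravenously each day for 7 days and of 1 male control rat, which received saline according to the methods and is labelled as not stimulated. The rats were 8 weeks old, and each thymus was hybridized to 1 Clariom S array, on which a set of short probes measures each transcript cluster. The labels name thymus as the source, while their note on RNA extraction names spleen. Since each group is a single array, the spread between animals is unknown, no test could be run, and precision is limited by the number of arrays.

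AMPK is an enzyme that senses low cellular energy. It consists of a catalytic alpha subunit, encoded by Prkaa1 or Prkaa2, and regulatory beta and gamma subunits. The NUAK, SIK and MARK kinases have a catalytic domain related to that of AMPK alpha, and LKB1 switches on all of these enzymes by phosphorylating their activation loop. In mice, deletion of the LKB1 gene in T cell precursors is known to impair the survival and development of thymocytes. Activation by LKB1 acts on the protein, which an array of mRNA does not measure.

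Markers of immature thymocytes were bright in both samples. Rag1, which cuts DNA during rearrangement of T cell receptor genes, had a log2 intensity of 18.87 on the cocaine array and 18.87 on the control array, and Dntt, which adds nucleotides at the joints, had 18.32 and 18.27. The median intensity was 107 in the cocaine thymus and 108 in the control thymus over 23188 transcript clusters, and 6300 of them (27.2%) held one and the same value in both samples. In log2 differences, cocaine minus control, the central 95% lay between -0.59 and 0.56. The arrays also hold 23 background control rows, each with the same value on both arrays, which ran from 3.13 to 7.47 on the log2 scale with a median of 6.77. For the 9 measured kinase genes it is said below where a value lay inside this range. The files give neither a detection call nor the base composition of each probe set, so no row was called absent.

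Nuak1, which encodes a kinase that controls myosin phosphatase and cell adhesion, had a log2 intensity of 8.43 in the cocaine thymus and 6.93 in the control thymus. The signal was 2.83-fold higher with cocaine, a log2 difference of 1.498. Among all 23188 transcript clusters this was the second-highest difference, after the interferon-inducible gene Ifi27 (13.49 in the cocaine thymus and 11.91 in the control thymus) and before the thrombin receptor gene F2r (10.97 and 9.55). On the cocaine array Nuak1 lay at percentile 66.3 of all transcript clusters, and on the control array at percentile 52.3. The cocaine value lay 0.96 above the brightest background control row on the log2 scale. The control value lay inside the range of these rows, so the low end of the fold rests on a signal that cannot be set apart from background here. When a constant of 50 was added to both intensities before taking log2, which damps such dim values, the difference was 1.20. Of 2122 transcript clusters with a mean within 0.5 of that of Nuak1, 8 (0.377%) were higher by more than 2-fold, Nuak1 among them, a place that follows from how Nuak1 was picked.

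**Figure D1:**
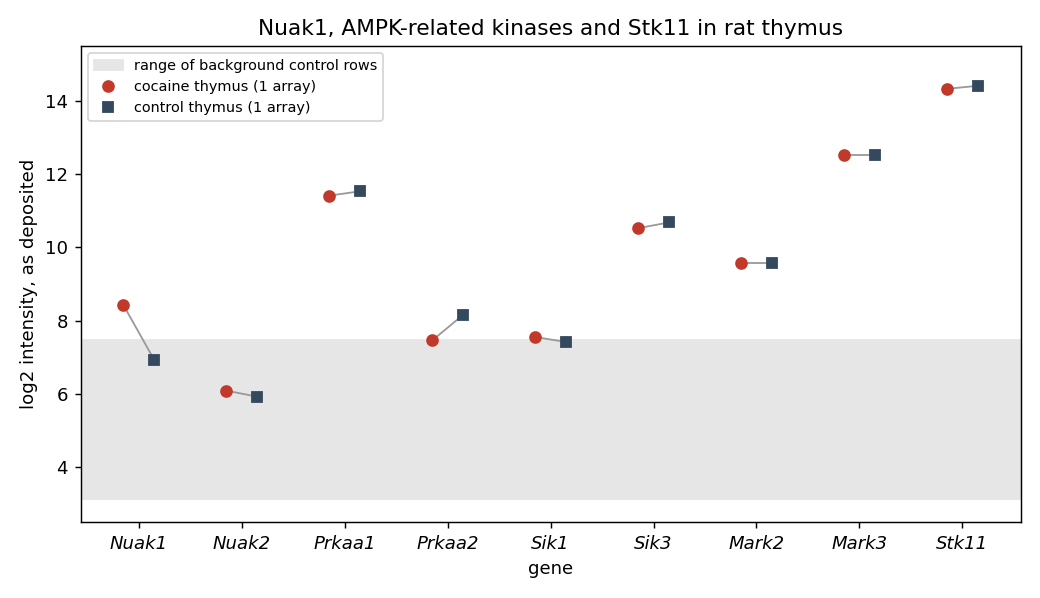
Log2 intensity (vertical axis) of the 9 measured kinase genes (horizontal axis) on the cocaine array (circles) and the control array (squares), 1 array each, with the range of the 23 background control rows shaded. Nuak1 stands at 8.43 with cocaine and 6.93 in the control, Prkaa2 at 7.46 and 8.16, and the lines of the other 7 genes are nearly level.

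For the 2 kinase genes that differed by more than 1.5-fold, the stretch of 250 bases before the annotated start of the gene is shown, since transcription of each gene begins at the end of it. The sequences are from RefSeq on the rat assembly GRCr8, written from 5′ to 3′ along the gene's own strand, with each GC box (GGGCGG, or CCGCCC on the opposite strand) in capitals. Nuak1 lies on the plus strand and its stretch is chr7:21217479-21217728. Prkaa2 lies on the minus strand and its stretch is chr5:125108325-125108574.
Nuak1: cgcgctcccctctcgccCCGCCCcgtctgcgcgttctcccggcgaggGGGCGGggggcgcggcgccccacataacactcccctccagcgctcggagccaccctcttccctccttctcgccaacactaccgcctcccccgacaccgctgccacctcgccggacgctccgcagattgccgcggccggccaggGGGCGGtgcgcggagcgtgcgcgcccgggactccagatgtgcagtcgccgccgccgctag
Prkaa2: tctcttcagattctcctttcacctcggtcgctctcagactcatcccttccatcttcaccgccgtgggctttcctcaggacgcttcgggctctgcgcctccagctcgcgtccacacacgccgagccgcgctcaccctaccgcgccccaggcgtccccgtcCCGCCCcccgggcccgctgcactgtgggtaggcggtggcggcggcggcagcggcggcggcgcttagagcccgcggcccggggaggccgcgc
The Nuak1 stretch held 3 GC boxes and was 76.4% G or C, and the Prkaa2 stretch held 1 GC box and was 72.8% G or C. A GC box was present in 30.5% of the 33469 rat promoters of the same length in the table. Kinase genes within 1.5-fold held GC boxes too, 6 before Prkaa1, 8 before Sik1, 1 before Nuak2 and 1 before Mark3. There were also 6 before Sik2, and none before Sik3, Mark2 or Stk11. The short form of the cAMP response element (TGACG or CGTCA), found in 18.2% of all promoters, and the E box CACGTG, found in 5.59%, occurred in neither the Nuak1 nor the Prkaa2 stretch. Stretches before all 10 kinase genes were in the table, and this short element was counted 2 times before Sik1, 2 times before Sik2 and 3 times before Sik3, and in none of the other 7. These are matches of letters and do not show that a factor binds.

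Of the 9 measured kinase genes, Nuak1 passed 1.5-fold upward with cocaine, as did 2.09% of all transcript clusters, and Prkaa2 passed it downward, as did 2.51% of all (4.59% in either direction). Only Nuak1 also passed 2-fold, which 0.129% of all transcript clusters did upward and 0.22% downward, 0.349% in either direction. The other 7 genes had log2 differences between -0.16 and 0.17, and 2 of them, Mark2 and Mark3, held identical values on both arrays. Over the 9 kinase genes the median difference was 0, the value held by Mark2 and Mark3. Over all transcript clusters it was also 0, with 27.2% of them identical on both arrays. Since both medians fall on equal deposited values, they do not show a lack of shift. The shares past 1.5-fold also stand beside the counts in the gene lists below. In lists so short, a single gene or none past the limit cannot be set apart from these shares.

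**Figure D2:**
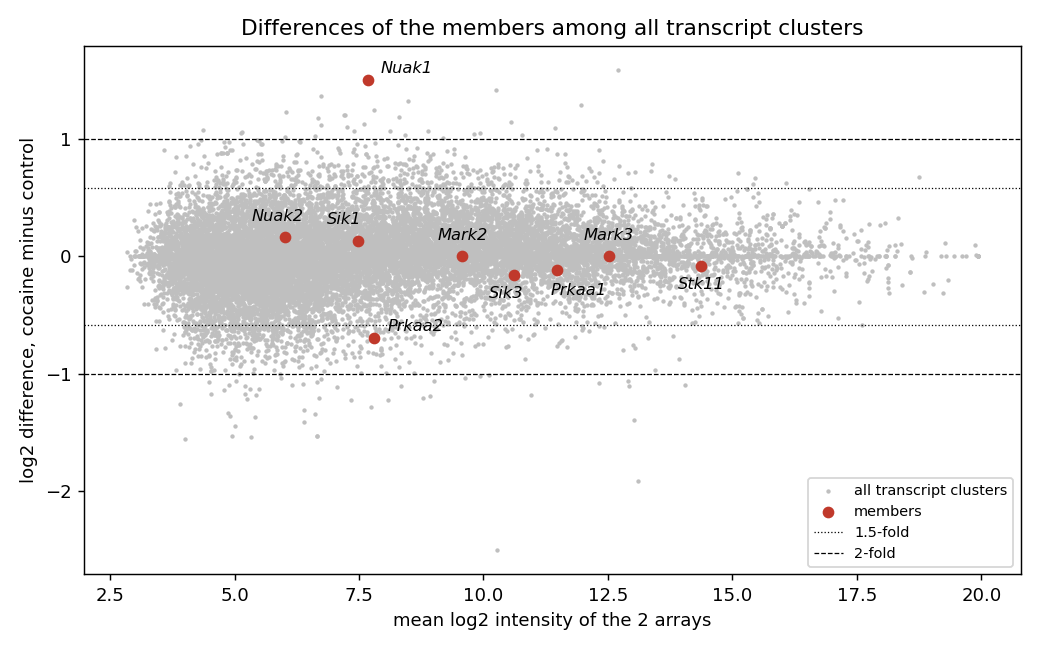
Cocaine minus control log2 difference (vertical axis) against mean log2 intensity of the 2 arrays (horizontal axis) for 23188 transcript clusters (grey) and the 9 measured kinase genes (red), with lines at 1.5-fold and 2-fold. Nuak1 lies at 1.498 at the upper edge of the cloud, Prkaa2 at -0.70 below the 1.5-fold line, and the other 7 genes lie inside the lines.

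Nuak2 encodes the only other NUAK kinase and has the same activator. Its log2 intensity was 6.09 in the cocaine thymus and 5.93 in the control thymus, a difference of 0.17. Both values lay inside the range of the background control rows, so the array gives little hold on Nuak2 in either thymus. On the log2 scale the difference of Nuak1 exceeded that of Nuak2 by 1.33. Against the median difference of its 7 measured relatives (Nuak2, Prkaa1, Prkaa2, Sik1, Sik3, Mark2 and Mark3), which was 0, the difference of Nuak1 was higher by 1.498. It was higher by 1.62 when the 2 relatives with identical values were left out. The smallest gap to any one relative was that to Nuak2 and the largest, 2.20, was that to Prkaa2.

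Prkaa2 and Prkaa1 encode the alternative catalytic subunits of AMPK. Prkaa2, the form known from skeletal and heart muscle, had a log2 intensity of 7.46 in the cocaine thymus and 8.16 in the control thymus. It was 1.62-fold lower with cocaine, a difference of -0.70. Here the control value lay 0.69 above the brightest background control row, while the cocaine value lay inside the range of these rows. Of 2114 transcript clusters with a mean within 0.5 of that of Prkaa2, 55 (2.6%) were lower by more than 1.5-fold and 64 differed by at least as much as Prkaa2 in either direction. Prkaa2 was within 1.5-fold (-0.57) when a constant of 50 was added to both intensities. Prkaa1, the main form in T cells of mice, had 11.41 in the cocaine thymus and 11.53 in the control thymus, both far above the background control rows. Its difference was -0.12, within 1.5-fold.

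The beta subunits (Prkab1 and Prkab2) tether the AMPK complex and its gamma subunits (Prkag1, Prkag2 and Prkag3) bind AMP and ATP. None of these 5 genes was past 1.5-fold, and 3 of them held identical values on both arrays. Prkag1 had a log2 intensity of 11.41 in the cocaine thymus and 11.42 in the control thymus, and Prkag3, which is known from skeletal muscle, had 5.86 and 5.85, both inside the range of the background control rows. As deposited, the differences of the 5 ran from -0.01 to 0.01, where the 3 identical pairs do not measure a lack of change. After quantile normalization Prkag1 differed by -0.06 and Prkag3 by 0.05.

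The salt-inducible kinases hold CRTC coactivators and class IIa histone deacetylases in the cytoplasm by phosphorylating them. Sik1, whose transcription is itself induced through cAMP and CREB, had a log2 intensity of 7.55 in the cocaine thymus and 7.42 in the control thymus. The difference was 0.13, and both values lay close to the brightest background control row, the first 0.08 above it and the second 0.05 below it (a gap of -0.05). Sik3 had 10.53 in the cocaine thymus and 10.68 in the control thymus, a difference of -0.16. Of 5 measured SIK substrates, only Hdac4 passed 1.5-fold, upward, as did 2.09% of all transcript clusters. Hdac4, a class IIa histone deacetylase, had 11.15 in the cocaine thymus and 10.54 in the control thymus, 1.53-fold higher. This difference of 0.62 lay just past the limit, and it was 0.57 after quantile normalization and 0.58 after lowess centring, both within 1.5-fold.

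CREB and its CRTC coactivators drive a set of early response genes. Of 10 measured targets, only Dusp1 passed 1.5-fold, upward, as did 2.09% of all transcript clusters. The median of the list was 0.17, against 0 over all transcript clusters, and 0.11 after quantile normalization. Dusp1, a phosphatase of MAP kinases that glucocorticoids also induce, had a log2 intensity of 9.35 in the cocaine thymus and 8.74 in the control thymus, 1.53-fold higher. It lay within 1.5-fold after quantile normalization (0.54), after lowess centring (0.57) and with the constant of 50 (0.56). The differences of the other 9 targets ran within 1.5-fold, and the lowest of the list was -0.20.

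Mark2 and Mark3 encode kinases that detach microtubule-associated proteins from microtubules and act in cell polarity. Mark2 had a log2 intensity of 9.58 in the cocaine thymus and 9.58 in the control thymus, and Mark3 had 12.52 and 12.52. Each pair was identical to the last deposited digit, which is a property of the deposited values and not a measured lack of change. After quantile normalization Mark2 differed by -0.06 and Mark3 by -0.03. Of 5 measured MARK substrates none was past 1.5-fold. Map4, the microtubule-associated protein of non-neuronal cells, had 11.37 in the cocaine thymus and 11.59 in the control thymus, and Arhgef2, a microtubule-bound activator of RhoA, had 11.52 and 11.38. The median of this list was -0.22, and 0.0035 when the dimmest genes, those under the 25th percentile of brightness, were left out. Of 5 further measured kinases of the family, none was past 1.5-fold, and the median was -0.05. Mark1 had 6.71 in the cocaine thymus and 6.84 in the control thymus, and Brsk1, known from neurons, had 5.51 and 5.59, and all of these values lay inside the range of the background control rows.

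**Figure D3:**
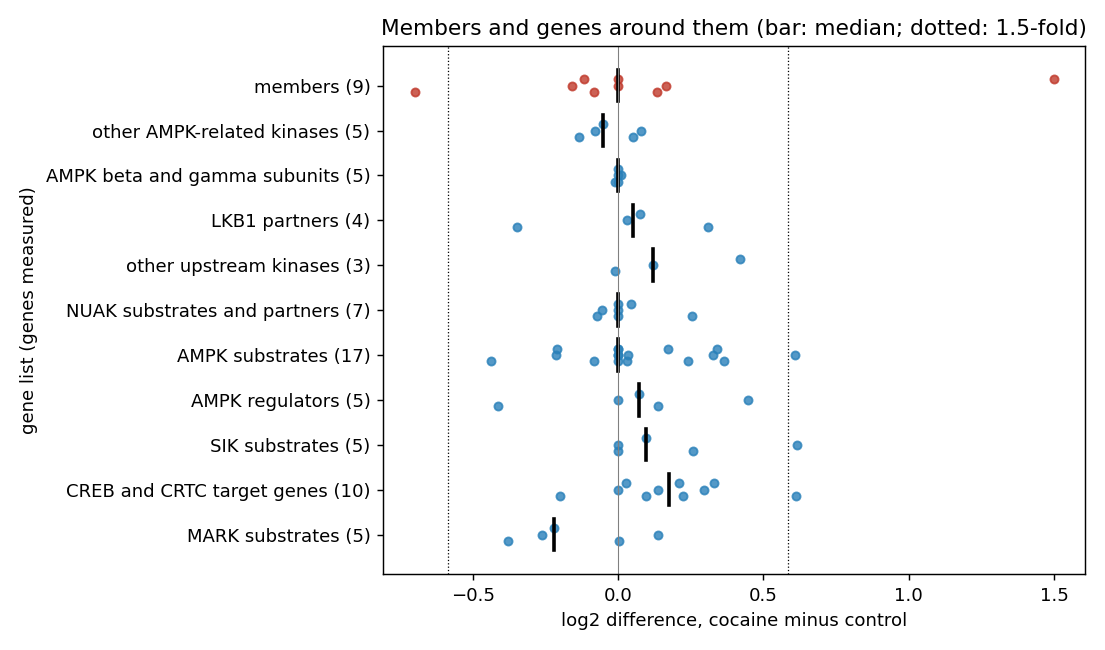
Cocaine minus control log2 difference (horizontal axis) of each measured gene in the kinase genes of this report (red) and in 10 lists of genes around them (blue), with the number of genes measured beside each list, the list median as a bar and 1.5-fold as dotted lines. Outside the dotted lines lie Nuak1 (1.498) and Prkaa2 (-0.70) in red, and Ppargc1a, Hdac4 and Dusp1 in blue.

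Stk11 encodes LKB1, the shared activator. Its log2 intensity was 14.33 in the cocaine thymus and 14.41 in the control thymus, a difference of -0.08, and it lay at percentile 97.1 of the cocaine array and 97.2 of the control array. LKB1 is active in a complex with a STRAD pseudokinase and the scaffold MO25, and none of the 4 genes of these partners was past 1.5-fold. Cab39 and Cab39l, which encode the alternative MO25 proteins, differed in opposite directions. Cab39 had 13.78 in the cocaine thymus and 14.12 in the control thymus (a difference of -0.35), while Cab39l had 11.29 and 10.98 (0.31). Of the genes of 3 other kinases, all known or proposed to phosphorylate AMPK alpha, none was past 1.5-fold. Map3k7, which encodes TAK1, had 12.69 in the cocaine thymus and 12.27 in the control thymus, and Camkk2, a calcium-dependent kinase, had 7.996 and 7.88.

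NUAK1 is known to bind and phosphorylate the myosin phosphatase complex, whose catalytic subunit is encoded by Ppp1cb and whose targeting subunit by Ppp1r12a. None of 7 measured substrates and partners of NUAK1 was past 1.5-fold, and 3 held identical values on both arrays. Ppp1cb had a log2 intensity of 15.61 in the cocaine thymus and 15.35 in the control thymus. Ppp1r12a had 13.22 in both, and Ppp1r12c, a related targeting subunit, had 8.48 in the cocaine thymus and 8.55 in the control thymus. The differences in this list ran from -0.07 to 0.25. As in the lists of SIK, MARK and AMPK substrates, these are values of mRNA. The array does not measure binding or phosphorylation of the proteins by these kinases.

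Of 17 measured substrates of AMPK, only Ppargc1a passed 1.5-fold, upward, as did 2.09% of all transcript clusters. The median was 0, with 5 genes identical on both arrays, and 0.10 without these. Ppargc1a, a coactivator of mitochondrial biogenesis, had 4.40 in the cocaine thymus and 3.79 in the control thymus, both inside the range of the background control rows. With the constant of 50 its difference was 0.16. Txnip, an inhibitor of glucose uptake whose protein AMPK marks for degradation, had 14.83 in the cocaine thymus and 15.27 in the control thymus, a difference of -0.44. Mtfr1l, which AMPK phosphorylates in the control of mitochondrial shape, had 10.41 and 10.04, a difference of 0.37. None of 5 measured AMPK regulators was past 1.5-fold. Flcn, the folliculin gene, had 9.08 in the cocaine thymus and 8.63 in the control thymus, and Sesn2, a stress-induced gene whose protein restrains mTORC1, had 7.85 and 8.26. Over the 10 lists together 66 of 79 genes were measured. Of these, 3 passed 1.5-fold upward and none downward, beside 2.09% and 2.51% of all transcript clusters.

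Scaling changed little in the differences of the kinase genes. After quantile normalization, median centring or lowess centring, Nuak1 stayed between 1.47 and 1.52, past 2-fold, and Prkaa2 between -0.73 and -0.68, past 1.5-fold. None of the other 7 genes passed 1.5-fold under any of the 5 settings. The signs of Nuak2, Prkaa1, Sik1, Sik3 and Stk11 were the same under all 5, while Mark2 and Mark3 were 0 as deposited, below 0 after quantile normalization and above 0 after median centring.

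**Figure D4:**
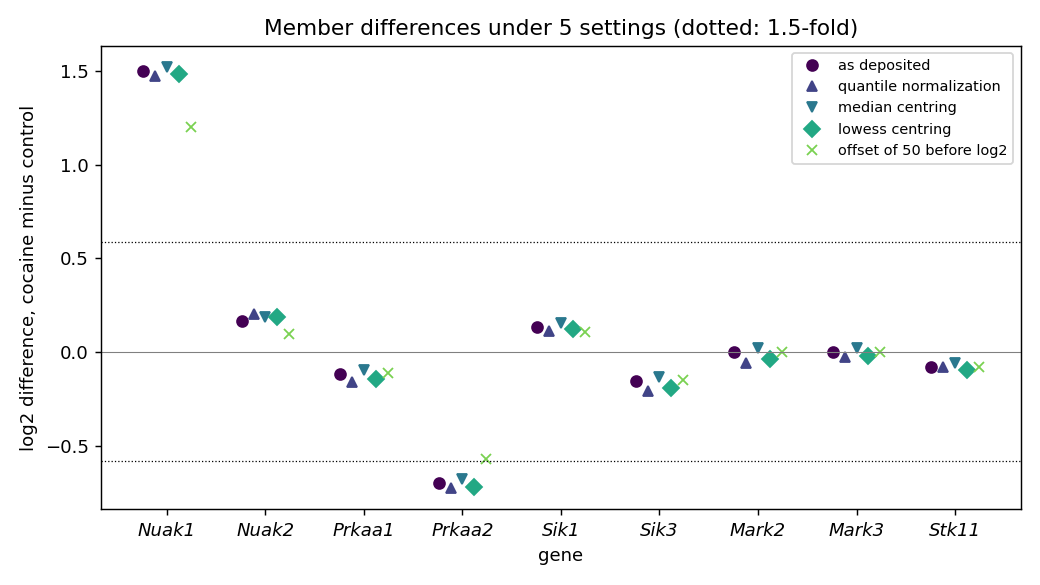
Cocaine minus control log2 difference (vertical axis) of the 9 measured kinase genes (horizontal axis) as deposited, under 3 other scalings and with a constant of 50 added to both intensities, with dotted lines at 1.5-fold. Nuak1 falls to 1.20 and Prkaa2 to -0.57 with the constant, and the other 7 genes stay inside the lines under all 5 settings.

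Whole thymus holds several cell types, and in bulk RNA fewer cells of a type and less RNA per cell cannot be told apart. Of 79 measured markers of 11 cell types, 3 (3.8%) were higher and 5 (6.33%) lower by more than 1.5-fold, where 2.09% and 2.51% of all transcript clusters were. The medians of the lists ran from -0.34 to 0.15. Of 8 markers of cortical thymocytes none passed 1.5-fold, and their summed intensity was 1200000 in the cocaine thymus and 1250000 in the control thymus. Beside the higher Nuak1, the summed intensity of 8 fibroblast markers was 3070 in the cocaine thymus and 3410 in the control thymus (none past 1.5-fold), that of 8 smooth muscle and pericyte markers was 4100 and 3940, and that of 11 markers of striated muscle was 752 and 691 (none past 1.5-fold). It was 1990 in the cocaine thymus and 1800 in the control thymus for 8 endothelial markers, and 6270 and 5860 for 8 macrophage markers. For 6 markers of thymic epithelium it was 90500 in the cocaine thymus and 71500 in the control thymus (none past 1.5-fold). Prss16, by far the brightest of the 6, had 16.41 and 16.05 and weighs most in the sum. Krt8, the next brightest, differed by 0.02. The median difference of the 6 was 0.01, and their differences ran from -0.19 to 0.44. The 3 higher markers were Notch3 of smooth muscle and pericytes (a difference of 0.61), Tek of endothelium (0.61) and Csf1r of macrophages (0.64). All 3 lay close to the limit. Both values of Csf1r and the control values of Notch3 and Tek lay inside the range of the background control rows. The 2 brightest markers of each of these lists were within 1.5-fold. Acta2 differed by 0.08, Pecam1 by 0.28 and Cd68 by 0.17, while Tagln, Cdh5 and C1qa were identical on both arrays. All but 1 of the striated muscle markers lay inside the range of the background control rows on both arrays. Beside the lower Prkaa2, the summed intensity of 7 adipocyte markers was 4190 in the cocaine thymus and 8520 in the control thymus, with 3 of 7 lower by more than 1.5-fold. The adipokine gene Adipoq had 8.34 in the cocaine thymus and 9.53 in the control thymus, and Fabp4, a fatty acid binding protein gene, had 11.77 and 12.85. Fabp4 was by far the brightest of the 7 and weighs most in the sum. The third lower gene, Pparg (a difference of -0.71), lay inside the range of the background control rows on both arrays, as did 5 of the 7 in all. Retn was lower within 1.5-fold (-0.34), Cidec (0.24) and Lipe (0.03) were higher, and Lep was identical on both arrays. Of 5 erythroid markers 2 were lower, and their summed intensity was 2830 in the cocaine thymus and 4350 in the control thymus. The globin gene Hba-a1 had 11.20 in the cocaine thymus and 11.92 in the control thymus, while the globin gene Hbb differed by 0.01 and Alas2, of heme synthesis, by 0.49. The other lower one, the anion exchanger gene Slc4a1, had 4.19 and 5.53, both inside the range of the background control rows. The part of these cell types in the differences of Nuak1 and Prkaa2 was not tested.

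The named genes nearest to Nuak1 were sought by the distance over its 2 log2 levels, so the likeness rests on 2 arrays only and on levels that also depend on each probe set. That these genes, too, were higher with cocaine follows from this choice. The nearest was Mcrs1, a subunit gene of chromatin complexes, at 8.42 in the cocaine thymus and 7.18 in the control thymus, at a distance of 0.25. Cmss1 followed at 8.10 and 7.16, and then came Camk2g, a calmodulin-dependent kinase gene, at 8.30 in the cocaine thymus and 7.33 in the control thymus. The MAP kinase kinase gene Map2k3 had 8.09 and 7.21, and Hddc2 had 8.08 in the cocaine thymus and 7.21 in the control thymus.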

How the data were processed

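Thymus RNA of 1 cocaine-treated and 1 control rat was measured on 2 Clariom S arrays, and groups were taken from the sample titles. The methods state 4 rats per group, while the series' design text gives 1 rat of each group for the arrays. Per the methods the authors used the TAC software, and the deposited table holds a linear intensity for each transcript cluster. The software version, background correction, normalization and build are not stated in the sources used here. Of 24834 rows, 1646 control rows were left out of comparisons. Of 23188 transcript clusters, 15049 had 1 gene symbol in the platform annotation, none had several and 8139 had none here. Where a gene had several, the brightest on average was taken.

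Log2 of the deposited intensity was used without further scaling. Quantile normalization, used in an earlier analysis of these data, was kept as an alternative. The reasons were that the median intensities of the 2 columns were close (107 and 108) and that the step pulls apart genes deposited with equal values. The median log2 difference of 0 fell on equal deposited values and does not show a lack of shift. After median centring it was 0.02. Over all transcript clusters, the largest change by quantile normalization was 0.10. Other alternatives were median centring, lowess centring, a constant of 50, filters at the 25th percentile and the median, and the mean of several transcript clusters. Comparisons without identical rows were added after the data were seen. No statistical test was possible. The kinase genes and the gene lists were chosen with earlier results of these data known. From each pathway list the genes past 1.5-fold were named, or else the 1 or 2 largest differences whose mean reached the 25th percentile. From the cell type lists, the rule was to name the 1 or 2 genes brightest on average and any past 2-fold. No such bright gene was named for fibroblasts, B cells, striated muscle or neurons and glia. Txnip, Mtfr1l, Ppp1r12a, Notch3, Tek, Csf1r, Alas2, Pparg, Retn, Cidec, Lipe and Lep lie outside the rule and were picked with their values known. Each fold divides the brighter by the dimmer intensity. The scalings were tested on simulated data with less noise than these data. Recovery of planted differences past 2-fold was required under all of them except the constant of 50. Versions were Python 3.11.15, matplotlib 3.10.9, statsmodels 0.14.6, pandas 2.3.3 and numpy 2.4.6.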

Additional observations from a re-analysis of the deposited data

How the results depend on the processing

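No paired analysis was possible because there was a single array for each group, which also leaves no replicate to omit. Values were called close where they moved by less than the robust SD of the differences of the 1000 transcript clusters nearest in brightness. Quantile normalization, median centring and lowess centring moved none of the kinase genes beyond this and no count of all transcript clusters beyond 1.5 times. This SD is one of single genes and too wide to judge a list median. After quantile normalization the median of the LKB1 partners was -0.02 in place of 0.05, that of the AMPK regulators 0.0054 in place of 0.07 and that of the CREB and CRTC targets 0.11 in place of 0.17. They did move 4 counts of list genes past 1.5-fold, where Hdac4 and Dusp1 fell inside the limit after quantile normalization and lowess centring.

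With a constant of 50 before log2, Nuak1 was at 1.20, Nuak1 minus the median of its relatives at 1.20, and 1 kinase gene in place of 2 was past 1.5-fold, since Prkaa2 fell inside it. At 2-fold that count was also 1. With the constant, 204 transcript clusters were higher and 125 lower past 1.5-fold, against 484 and 581 as deposited, and 9 were higher and 14 lower past 2-fold, against 30 and 51. The median of the MARK substrates was -0.062 with the constant and 0.0035 among genes from the 25th percentile of brightness upward. Among the brighter 50% of transcript clusters, 301 transcript clusters were higher and 174 lower past 1.5-fold, and 19 were lower past 2-fold, so the balance turned from more lower to more higher past 1.5-fold, and the cause was not tested. Without genes identical on both arrays the median of the SIK substrates was 0.26. No difference past 1.5-fold among the kinase genes changed sign under the settings run. The lack of a second array per group limits every value, and the dim control signal of Nuak1 and cocaine signal of Prkaa2 limit their folds.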
